A study of Homo sapiens with 3 samples.

Results

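The USF and MiT families are transcription factors of the basic helix-loop-helix class, which bind DNA as dimers at short E-box elements, and several of them read the same canonical E-box, CACGTG, as the clock activator BMAL1 and the MYC partner MAX. USF1 and USF2 are ubiquitous factors of glucose and lipid metabolism genes, and USF3 is a larger relative. The MiT family comprises TFEB and TFE3, which activate lysosomal and autophagy genes when nutrient signalling through mTORC1 falls, MITF, which is best known for melanocyte genes, and TFEC, which is mainly known from macrophages. The data ask whether BMAL1 and MAX were found at the genes that encode these 7 factors. Where the factors themselves bind was not measured.

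The cells were MDA-MB-231, a human cell line established from a pleural effusion of a breast adenocarcinoma. They grew in serum-containing medium without a further treatment, were fixed near confluence with formaldehyde (1%, 10 min), and their chromatin was precipitated with antibodies against BMAL1 or against MAX (4 µg), with input chromatin as the control. There was 1 library for each antibody and 1 input, so no value has a replicate error, and no test between conditions was possible. The members were USF1, USF2, USF3, TFEB, TFE3, TFEC and MITF, 7 of 20098 protein-coding genes, and a peak was assigned to a gene when its summit lay in the gene body or within 20 kb of any annotated transcription start site (TSS).

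By this rule the 13650 peaks of the MAX list gave 3 at the 7 genes, and the 756 peaks of the BMAL1 list gave none. MAX was listed once each at TFE3, MITF and USF1, and not at USF2, USF3, TFEB or TFEC. Thus 3 of 7 genes (42.9%, Wilson 95% interval 15.8% to 75.0%) had a MAX peak, beside 54.9% of all protein-coding genes, a share inside that interval. MAX at a promoter, defined in the study as a peak reaching within 300 bp of a TSS, was present at TFE3 alone, 1 of 7 genes (14.3%, interval 2.57% to 51.3%), beside 33.8% of all genes. For BMAL1 the count was 0 of 7 by both rules (interval up to 35.4%), beside 4.99% of all genes for the wider rule and 1.64% at promoters. With 7 genes, these counts do not separate the families from protein-coding genes at large.

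The MAX list was made from 11545865 tags and the BMAL1 list from 13866783, against 29308882 input tags. The weakest listed peaks rested on a pileup of 9 extended fragments for MAX and 12 for BMAL1, and occupancy that left fewer fragments is not in the lists.

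**Figure D1:**
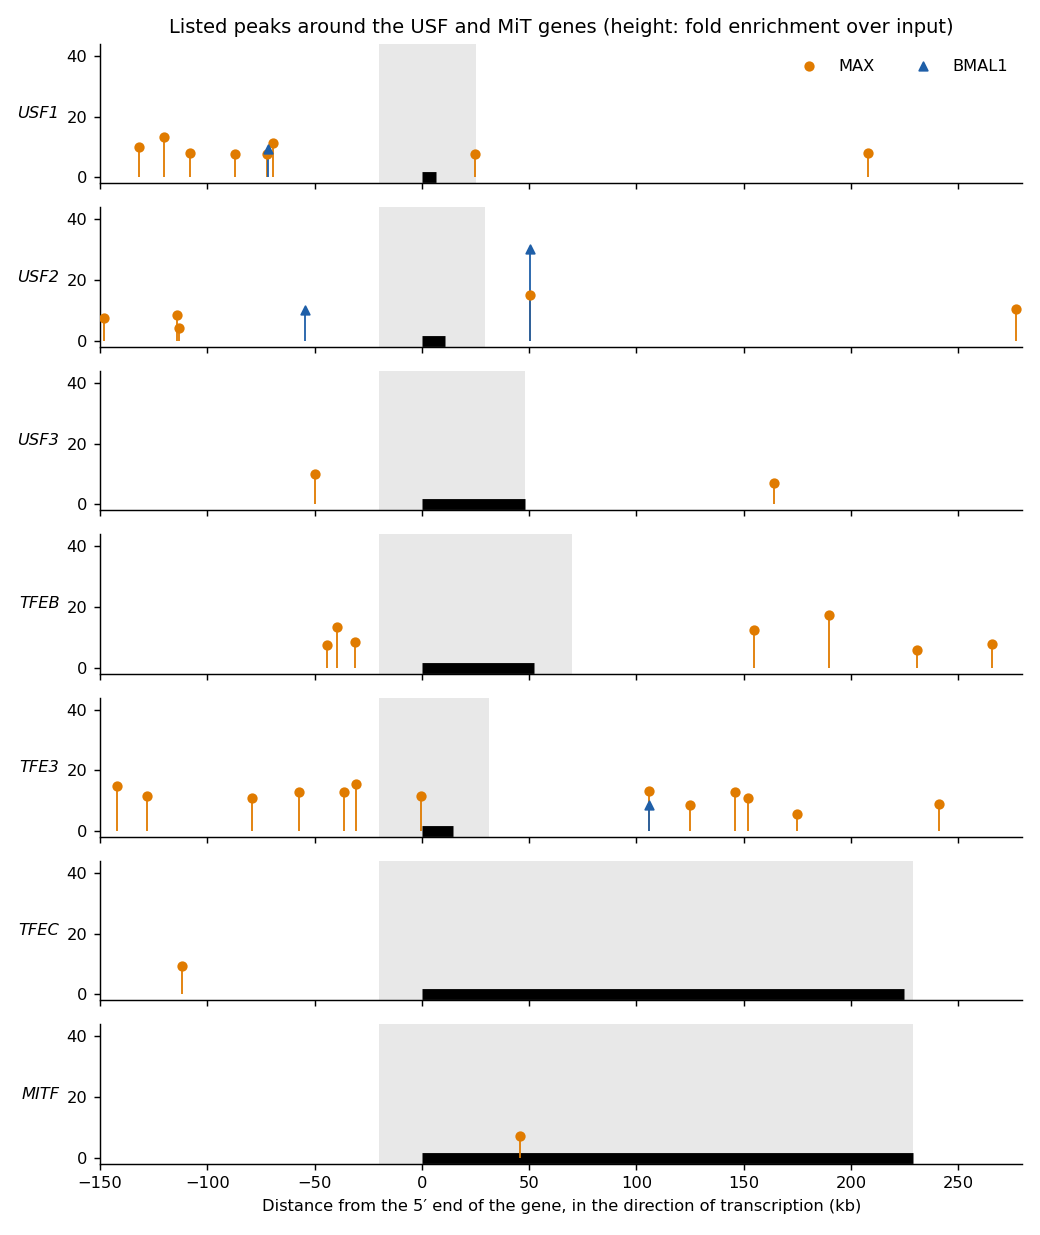
Listed MAX (circles) and BMAL1 (triangles) peaks around each of the 7 genes. The x axis is the distance from the 5′ end of the gene in the direction of transcription (kb), the height is the fold enrichment over input, black bars are gene bodies and grey areas are the searched windows, which hold 3 MAX peaks (at USF1, TFE3 and MITF) and no BMAL1 peak.

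The sequences at the 3 MAX summits are shown because none of them holds the canonical E-box. Each line gives 120 bases of the plus strand of hg19 centred on the summit, at chrX:48901180-48901299 for TFE3, chr3:69834427-69834546 for MITF and chr1:160990679-160990798 for the peak assigned to USF1. Capitals mark CATGTG, the variant E-box that MITF can also bind, and the letters CCACGCC or their reverse complement GGCGTGG.
TFE3: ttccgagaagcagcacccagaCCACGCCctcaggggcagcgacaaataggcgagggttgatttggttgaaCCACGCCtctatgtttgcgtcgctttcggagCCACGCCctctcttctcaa
MITF: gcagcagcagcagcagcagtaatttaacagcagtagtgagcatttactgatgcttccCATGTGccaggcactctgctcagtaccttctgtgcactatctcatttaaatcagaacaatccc
USF1: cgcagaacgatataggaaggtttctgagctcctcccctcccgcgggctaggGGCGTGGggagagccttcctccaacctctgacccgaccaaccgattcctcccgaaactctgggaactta

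TFE3 (ENSG00000068323, chromosome X, 48886237 to 48900936, minus strand) was the only member with MAX at its own promoter. The MAX peak spanned 48901014 to 48901529, and its summit at 48901240 lay in intergenic sequence 304 bp upstream of the nearest TFE3 TSS and 357 bp upstream of the nearest start site of a coding transcript. With a pileup of 15 fragments over a background of 1.28, the lowest in the list, TFE3 reached a fold enrichment of 11.7 (-log10 p 12.1). The fold enrichment exceeded that of 69.6% of MAX peaks, whereas the pileup exceeded 21.3%, so the peak was of middling rank on few fragments. Across the MAX list, 764 peaks (5.60%) had their summit 200 to 400 bp upstream of the nearest TSS of a protein-coding gene. Since 300 bp is the width of the promoter rule, the call at TFE3 rested on the flank of the peak. With the summit itself required to lie within 300 bp of a TSS, none of the 7 genes had a promoter peak, beside 29.1% of all genes.

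The TFE3 summit window held no E-box of any kind, whether the canonical CACGTG, the E′-box CACGTT, the related CACGCG, the variant CATGTG (each searched on both strands) or the general form CANNTG, which 67.3% of MAX summit windows of 200 bp contain. It held CCACGCC 3 times. These letters were picked after the sequence was seen. They occurred at least once in 9.05% of MAX summit windows on either strand, and 3 or more times in 21 of 13650 (0.154%). A letter match is a description of the sequence and not a binding site. No BMAL1 peak overlapped the TFE3 peak, and the nearest BMAL1 summit lay 95.1 kb from a TFE3 TSS, 876 bp from a TSS of OTUD5.

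At MITF (ENSG00000187098, chromosome 3, 69788607 to 70017487, plus strand), a gene with 19 annotated start sites that produce isoforms with different first exons, the single MAX peak was intronic. It spanned 69834271 to 69834587 with its summit at 69834487, 9072 bp upstream of the start of MITF-218, a transcript without a defined coding sequence, and 21525 bp from that of the nearest coding transcript, MITF-208. The pileup of 19 fragments stood over a background of 2.60, above the median background of the MAX list (1.87), so the fold enrichment was 7.31 and the -log10 p 11.2. By fold enrichment the peak exceeded 18.3% of MAX peaks and by pileup 52.5%. The CATGTG printed in capitals lay at the summit itself (69834484 to 69834489). CATGTG was present in 16.7% of all MAX summit windows. The same window carried a run of 7 CAG repeats and no CACGTG. MAX peaks over 5 kb from every protein-coding TSS were common, 4783 of the list (35.0%), with a median fold enrichment of 9.34.

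The third MAX peak was assigned to USF1 (ENSG00000158773, chromosome 1, 161009041 to 161015767, minus strand) by distance and belonged by position to another gene. It spanned 160990455 to 160991186, 18302 bp beyond the 3′ end of USF1, and fell inside the 20 kb limit, at 19634 bp, only through the start of USF1-204, a retained-intron transcript (20772 bp from the nearest coding one). Its summit lay in an intron of F11R, which encodes the junctional adhesion molecule JAM-A, 147 bp downstream of a TSS of that gene. It was a weak peak, with a pileup of 12 fragments (above 3.15% of MAX peaks), enriched 7.58-fold over a background of 1.58 (above 19.9%), and with a -log10 p of 7.83 (above 6.43%). An E′-box (CACGTT) lay in its flank, 278 bp from the summit. When a peak was counted only if its nearest protein-coding TSS was that of the member, 2 genes remained, TFE3 and MITF (beside 39.3% of all genes), an alternative added after the data were seen.

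**Figure D2:**
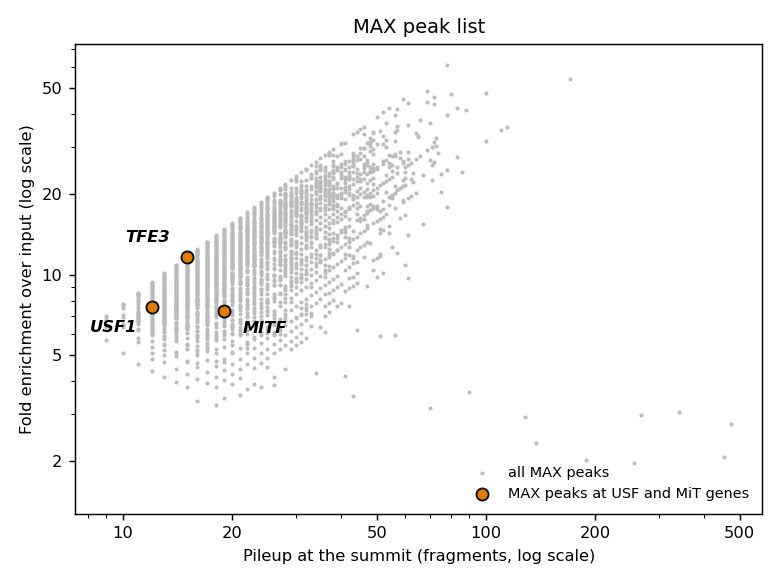
Fold enrichment over input against pileup at the summit (fragments), both on log scales, for all 13650 MAX peaks (grey) and the 3 at USF and MiT genes (orange). The USF1 and MITF peaks lie below the median fold enrichment of 9.73 and the TFE3 peak above it, and all 3 lie far from the strong end of the list.

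The other 4 genes had no listed peak of either factor. USF2 (chromosome 19, 35759865 to 35770724) had its nearest MAX summit 41.0 kb from a TSS, and USF3 (chromosome 3, 113367232 to 113415493) 49.6 kb, at the start of NAA50. TFEB (chromosome 6, 41651716 to 41703997) had its nearest at 31.0 kb, in an intergenic region 10941 bp from a TSS of FRS3, and TFEC (chromosome 7, 115575202 to 115799950) at 112 kb. TFEC and MITF are long genes, with 249 kb searched for each, and gave 0 and 1 MAX peaks. In the 1797 genes with 200 kb or more searched, 54.0% had a MAX peak and 5.34% a BMAL1 peak. Just outside the 20 kb limit the closest summits were those 30.9 kb from TFE3, at PRAF2, and 31.0 kb from TFEB, while the summit just inside it was that of the F11R peak, at 19.6 kb from USF1. Over all 7 genes, the median distance from a TSS to the nearest MAX summit was 31.0 kb, against 14.7 kb over all protein-coding genes.

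For BMAL1 the median distance was 160 kb, against 910 kb over all genes. USF2 lay closest, at 41.0 kb, and USF1 next at 71.6 kb, where the peak was in PFDN2. TFE3 (95.1 kb) and TFEB (160 kb, near USP49) followed. MITF at 725 kb and USF3 at 1110 kb were of ordinary distance, with 55.6% and 45.3% of all genes farther from a BMAL1 summit. TFEC at 7380 kb was remote, with 8.8% of genes farther. In all, 0.802 Mb were searched at the members, 249 kb each at TFEC and MITF, and gave 3.74 MAX peaks per Mb. Over all genes there were 10.3 gene and peak pairs per Mb, with overlapping windows counted for each gene. That rate would have given 8.28 in the length searched, and the difference was not tested.

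The canonical E-box was not lacking in these genes. The searched windows held 75 copies of CACGTG, 9.35 per 100 kb, against 10.6 per 100 kb in all protein-coding loci. MITF had 24, TFEB 16, USF2 14, TFE3 9, TFEC 9, USF3 2 and USF1 1. Per length, USF2 had the most (28.4 per 100 kb, in windows of 54.9% GC) and USF1 the fewest (2.20 per 100 kb, 48.5% GC), and the long, GC-poor windows of MITF (38.6% GC) and TFEC (35.2%) had 9.64 and 3.61. None of the 75 lay in a MAX peak, beside 2.51% of the 165802 copies in all loci. Accordingly 0 of the 3 MAX peaks had CACGTG in the 200 bp centred on the summit, beside 21.2% of MAX peaks. Counted over the whole peak, the number was also 0, beside 29.8%. Of the 75 copies, 2 carried the longer palindrome TCACGTGA, the core of the CLEAR element through which TFEB and TFE3 act, 1 in TFE3 and 1 in TFEC.

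Within 300 bp of a TSS, CACGTG occurred at TFEB alone, 1 of 7 genes, beside 29.8% of all protein-coding genes. Genes with CACGTG in this window had a MAX promoter peak in 46.3% of cases and a BMAL1 promoter peak in 4.60%, and genes without it in 28.6% and 0.383%, counts that describe 1 library each. TFEB was thus among the genes with the element and without a listed peak. The TFEB copy lay 56 bp upstream of the start of the coding transcript TFEB-207, inside the gene, in sequence annotated as UTR. Other E-box forms were found near start sites of more members. CACGTT was found at USF2 and MITF (29.8% of all genes), CACGCG at USF2 and TFEB (36.7%), and CATGTG at USF1, USF2, TFEB and MITF (52.6%). USF3, TFE3 and TFEC had none of the 4 forms there.

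The CACGTG copies nearest to a start site are shown for TFEB, USF2 and MITF, 3 of the 4 genes where this lay within 1 kb. They are set beside copies that lie inside BMAL1 peaks. Whether a copy inside a peak was itself bound was not measured. Each line gives 30 bases of the hg19 plus strand with the E-box in capitals. The positions are chr6:41659007-41659012 for TFEB, chr19:35762371-35762376 for USF2 (an intron, 385 bp from a TSS) and chr3:69808662-69808667 for MITF (an intron, 807 bp). The nearest MAX summits lay 76.0, 47.7 and 25.8 kb away. The last 3 lines are E-boxes inside BMAL1 peaks at promoters of genes upstream (FNIP1 and RRAGC) or downstream (LAMP1) of the MiT factors, at chr5:131132880-131132885 (FNIP1), chr1:39325551-39325556 (RRAGC) and chr13:113951378-113951383 (LAMP1).
TFEB: aggtatatgaggCACGTGtcctcctcaaag
USF2: gctgaccgggctCACGTGggctgacctttc
MITF: tgctgttctgtgCACGTGattgactgtaaa
FNIP1: ggcgggtcccgtCACGTGgcaggggcgggg
RRAGC: gtggtgccccgtCACGTGccggaatcacct
LAMP1: tgggtccagggtCACGTGccgctgcgggtc

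Genes that act upstream and downstream of the MiT factors were counted by the same rules. A first list held 27 genes of the nutrient signalling that controls the MiT factors. It included the mTORC1 kinase complex, the Rag GTPases and Ragulator that recruit it to lysosomes, folliculin and its partners, and calcineurin. Of the 27 genes, 17 (63.0%) had a MAX promoter peak and 4 (14.8%) a BMAL1 promoter peak, beside 33.8% and 1.64% of all genes. Each of the 4 BMAL1 promoter peaks held CACGTG. Over all genes with CACGTG within 300 bp of a TSS, the shares were 46.3% and 4.6%. The strongest MAX promoter peaks were at AKT1S1, an inhibitory subunit of mTORC1 (fold enrichment 24.2), RHEB, its activating GTPase (18.7), and NPRL2, part of the GATOR1 complex that restrains Rag GTPases (17.4). BMAL1 was at the promoters of FNIP1, a folliculin partner (fold enrichment 15.6), RRAGC, a Rag GTPase that presents TFEB and TFE3 to mTORC1 (13.6, with no MAX peak), LAMTOR4, a Ragulator subunit (17.6), and AKT1S1 (7.05). By the wider rule, RPTOR, the scaffold of mTORC1, also had intronic BMAL1 peaks (9.36 and 7.44), while the BMAL1 peak assigned to FLCN (51.4) lay 176 bp from a TSS of PLD6.

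A second list held 29 lysosomal and autophagy genes of the CLEAR network, the targets of TFEB and TFE3. Of these, 21 (72.4%) had a MAX promoter peak (33.8% of all genes), the strongest at WIPI1, an autophagosome protein (38.0), CTSF, a cathepsin (20.7), and LAMP1, a lysosomal membrane protein (20.1). BMAL1 was at the promoters of 5 (17.2%, beside 1.64% of all genes), namely LAMP1 (19.1), CTSD (11.1), UVRAG (9.39), CTSA (8.15) and ATP6V1H (5.87). By the wider rule PSAP also had a BMAL1 peak (9.51), 17129 bp upstream of its nearest TSS. The CLEAR element contains CACGTG, so all genes are an unlike comparison. Among all genes with CACGTG within 300 bp of a TSS, 46.3% had a MAX and 4.6% a BMAL1 promoter peak. Of 10 pigment genes that MITF controls in melanocytes, 2 had a MAX peak by the wider rule (20.0%, beside 54.9% of all genes), at RAB27A (promoter, 8.57) and OCA2, and none a BMAL1 peak (4.99% of all genes). The members thus had a lower share of MAX promoter peaks (14.3%) than either the upstream or the CLEAR list, but this rests on 1 gene of 7 and the difference was not tested. The members and the lists were also chosen with earlier results of these data known.

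Among related E-box factors, the MYC/MAX network had a MAX promoter peak at 9 of 13 genes (69.2%, beside 33.8% of all genes), the strongest at its repressors MNT (25.7), MXD1 (25.1) and MXD3 (24.9). BMAL1 was at the promoters of 2 (15.4%, beside 1.64% of all genes), MXD3 (15.6) and MNT (6.58, and 7.69 for a second peak in the gene). All 3 other factors of the leucine zipper class had a MAX promoter peak (33.8% of all genes), SREBF2 (20.8), TFAP4 (13.2) and SREBF1 (10.2). By the wider rule 2 of these 3 had a BMAL1 peak (66.7%, beside 4.99% of all genes). The peaks lay 1563 bp inside TFAP4 (6.69) and, for SREBF1, 359 bp from a TSS of TOM1L2 (13.1). Of 6 clock factors of the wider basic helix-loop-helix class, 1 (16.7%, beside 33.8% of all genes) had a MAX promoter peak, BHLHE40 (17.5). By the wider rule 4 of them had a MAX peak (66.7%, beside 54.9% of all genes). BMAL1 peaks were listed by that rule at 2 (33.3%, beside 4.99% of all genes), BHLHE40 (15.3) and BHLHE41, up to 56.4 for one nearest to SSPN. The TFE3 value of 11.7 stood between those of SREBF1 and TFAP4.

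**Figure D3:**
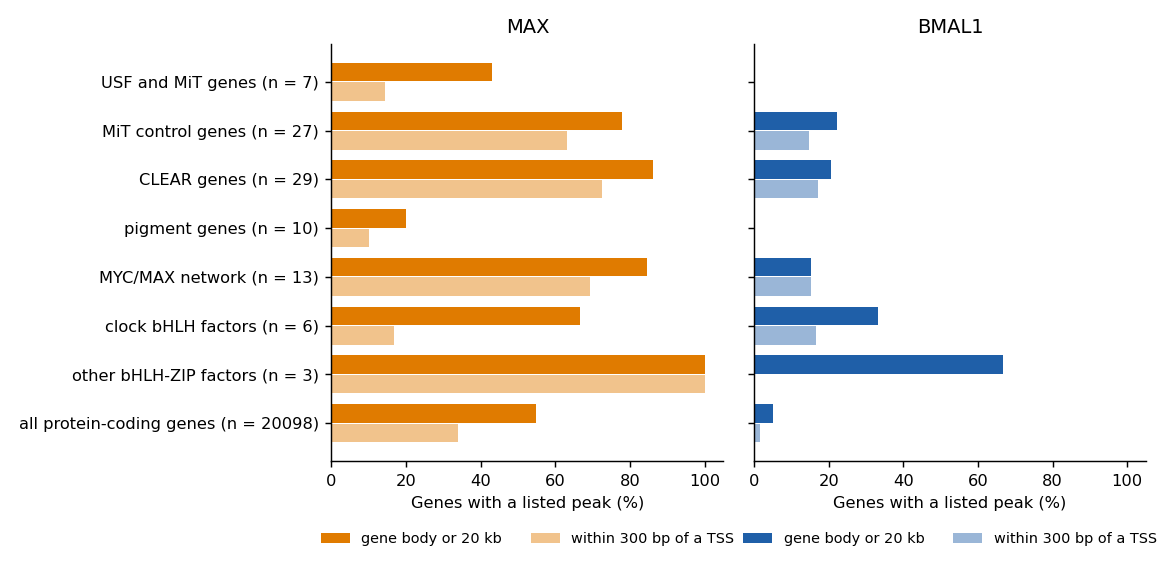
Share of genes with a listed MAX (left) or BMAL1 (right) peak in each list, with the peak summit in the gene body or within 20 kb of a TSS (dark) or the peak within 300 bp of a TSS (pale). The USF and MiT genes had MAX at 42.9% and 14.3% and BMAL1 at 0%, beside 54.9%, 33.8%, 4.99% and 1.64% of all protein-coding genes.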

How the data were processed

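The submitters' notes name BWA 0.6.2 and MACS2 2.0.9 on hg19. The authors called peaks separately for each antibody against the same input, extending tags to 300 bp and keeping at most 1 tag per position for MAX and 2 for BMAL1. The deposited pileup is a coverage signal in whole fragments at the summit, the fold enrichment is the authors' ratio of pileup to the local input background, and the -log10 p and q were written by their peak caller. Their methods state a threshold of 1e-08, but the headers 1e-05, and the lowest -log10 p listed is 5.01 for MAX and 6.34 for BMAL1. No listed peak was dropped. GENCODE release 44 mapped to GRCh37, the assembly of hg19, gave genes and start sites on the chromosomes of the MAX list, where 1 listed symbol had been renamed. Members and gene lists were chosen with earlier results of these data known. The text names the members, the nearest gene of a member peak, and in each list the 3 strongest MAX promoters and every gene with a BMAL1 peak. A promoter hit needed 1 bp of the peak in the window. Elements were searched on both strands of 200 bp at the summit. The sequence of 1 E-box copy is not reported here. Percentiles are the share of the list with lower values. Shares carry Wilson intervals, which cover counting only. The assignment rule was tested on planted peaks. Python 3.11.15, pandas 2.3.3, scipy 1.17.1 and pysam 0.24.0 were used.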

Additional observations from a re-analysis of the deposited data

How the results depend on the processing

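No call rests on a replicate, and no mappability or copy number was examined. No paired analysis was possible because there was 1 library per antibody. Of 46 values recomputed under other settings, 33 were the same or within 1.5 times. With 50 kb from a TSS, 10 MAX peaks fell at 6 member genes (66.5% of all genes). At that distance 1 BMAL1 peak fell at 1 gene, USF2 (8.43% of all genes). At a -log10 p of 12 or more, 1 MAX peak at 1 gene, TFE3, was left (39.2% of all genes). With the summit required within 300 bp, 0 genes had a MAX promoter peak (29.1% of all genes). Ranked by -log10 p, the peaks assigned to USF1, TFE3 and MITF exceeded 6.43%, 46.0% and 38.6% of the MAX list, and ranked by pileup 3.15%, 21.3% and 52.5%, against 19.9%, 69.6% and 18.3% by fold enrichment. The 10 kb limit, 1 TSS per gene and a -log10 p of 8 or more each left TFE3 and MITF. The shares of all genes were then 49.0%, 52.8% and 52.4%. BMAL1 counts were 0 under every setting but 50 kb, and the MAX summits held 0 CACGTG under each window, element set and threshold tried. The overlap of BMAL1 with MAX peaks at the members could not be computed, since no BMAL1 peak was listed there.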

Other observations

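The site shared by both factors that lay closest to any of the 7 genes was 41.0 kb from USF2, outside the 20 kb limit. It is the start of CD22, which encodes a B-cell surface receptor. The BMAL1 peak (chromosome 19, 35809817 to 35810401) had a pileup of 129 fragments and a fold enrichment of 30.3, above 94.8% of BMAL1 peaks, while the MAX peak there (35809796 to 35810381) was enriched 15.2-fold on 54 fragments, which exceeds 88.0% of the MAX list. The summits lay 61 and 69 bp upstream of a CD22 TSS, and both peaks held CACGTG at 35810082 to 35810087 and at 35810106 to 35810111. They are printed to show a pair of E-boxes inside peaks of both factors beside the 14 copies at USF2 that lay in no MAX peak.
first: gtctcatggcctCACGTGccagtagggctg
second: gggctgggccacCACGTGtgggagggagga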
